A study of Mus musculus with 4 samples.

Results

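The IL-10 family of cytokines and their receptors was followed in Th17 cells of the mouse, the helper T cells that make interleukin 17. The set held 10 genes of the 50600 in each deposited table, taken by gene symbol: the cytokine genes Il10, Il19, Il20, Il22 and Il24, the receptor genes Il10ra, Il10rb, Il20ra and Il22ra1, and Il22ra2, which encodes a secreted binding protein. RNA was sequenced in 4 libraries, labelled biological replicates 1 to 4 of a single group: primary Th17 cells of the mouse strain C57BL/6NJ, with no treated or control arm and no transgene in the labels. The file headers add 72 hours, and the linked differentiation protocol is for CD4+ T cells. Age is given as unknown and sex as not collected. All 4 libraries carry the same donor identifier, and nothing says that they came from separate animals or cultures, so p-values measure the spread between these libraries, which may be technical. The assay is labelled total RNA-seq, while the title of the linked library protocol names polyA+ RNA.

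Cytokines of the IL-10 family signal through pairs of class II cytokine receptor chains that engage the kinases JAK1 and TYK2 and, mainly, the transcription factor STAT3. IL-10 binds IL-10RA with IL-10RB and restrains inflammatory responses in immune cells. IL-22, a known product of Th17 cells and innate lymphoid cells, binds IL-22RA1 with IL-10RB on epithelial cells, where it induces antimicrobial and barrier genes. IL-20 and IL-24 signal through IL-20RA or IL-22RA1 paired with IL-20RB, and IL-19 through IL-20RA paired with IL-20RB. These chains are found mainly on skin and other epithelia. IL-22RA2, also called IL-22 binding protein, captures IL-22 and keeps it from its receptor.

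Total counts were 33123029 to 37746767 fragments a library, with 19572 to 20355 genes detected and 98.8% to 98.9% of counts in protein-coding genes. Of the markers of the labelled cell type, all 8 Th17 and all 9 pan-T cell markers exceeded 1 TPM (transcripts per 1000000, that is, counts over gene length scaled to this sum in every library), as did 70.6% of all genes tested. Some markers of other cells passed the same level. They included 2 of 7 tested B cell markers (Ighm at 64.2 TPM and Ebf1 at 42.5 TPM) and 3 of 7 tested myeloid cell markers. So did 3 of 3 tested CD8 T cell markers, with Cd8b1 at 42.0 TPM and Cd8a at 0.0379 TPM. Of 4 tested NK cell and innate lymphoid cell markers, 3 passed: Il7r at 30.2 TPM, Eomes at 21.1 TPM and Kit at 1.93 TPM. In the dendritic, gamma-delta T and epithelial cell lists 1 of 4 tested passed each, and in the stromal and endothelial list 1 of 3. Replicate 2 stood apart. Each library was set against the remaining 3 in an edgeR quasi-likelihood test, with Benjamini-Hochberg adjustment over 17337 genes and a threshold of 0.05. Replicate 2 had 3907 genes called, 2024 higher and 1883 lower. Replicates 1, 3 and 4 had 0 called, with 166, 257 and 128 genes at an unadjusted p under 0.05 and 2, 15 and 3 called by DESeq2. In the tests of replicates 1, 3 and 4, replicate 2 was among the libraries compared. Its distance widened the spread, so 0 calls there do not show that these libraries were alike. Because replicate 2 stood apart, each result is given with the 4 libraries named, and levels also without replicate 2.

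Th17 cells expressed Il22 at high level, Il24 at a moderate one, a little Il10, and both chains of the IL-10 receptor. By mean TPM, Il22 ranked 520th and Il24 4876th of 21764 protein-coding genes. Transcripts of the IL-22 and IL-20 receptor chains Il22ra1 and Il20ra, of the decoy Il22ra2 and of Il20 were at or near 0, and Il19 was below 1 TPM. Of the 10 genes, 6 reached the 10 summed counts needed for testing, and 4 of these exceeded 1 TPM, against 70.6% of all genes tested. Il19 was the 1 member of these 6 significantly below 1 TPM, against 16.4% of all genes tested. It passed the filter at exactly 10 summed counts, and was no longer tested without replicate 2, 3 or 4 or with a minimum of 100 counts. Il10 was not called on either side. With no filter beyond 1 count, 8 members were tested and 3 were below 1 TPM, against 8215 of 23799 genes. These 3 were Il19, Il20ra and Il22ra1. Il22 alone made up 82.5% to 84.7% of the summed TPM of the 10 genes, which came to 221 TPM in replicate 2, against 460, 441 and 368 TPM in replicates 1, 3 and 4.

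**Figure D1:**
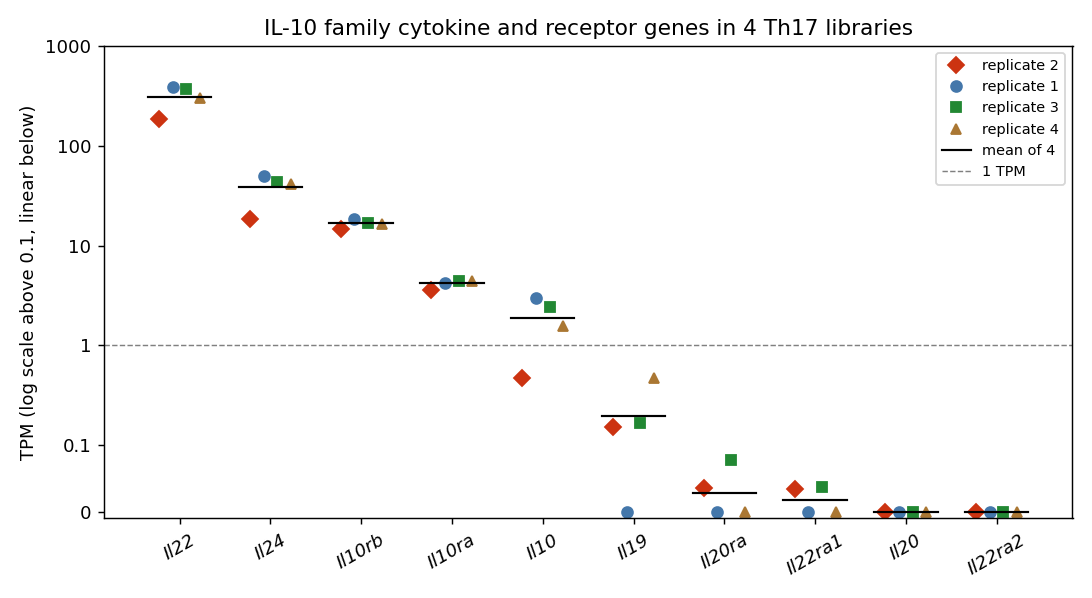
TPM of each of the 10 genes (vertical axis, logarithmic above 0.1 and linear below) in each of the 4 libraries, with the mean as a bar and 1 TPM as a dashed line. Il22 and Il24 stand highest, at means of 311 and 38.2 TPM, the 5 genes at the right stay at or below 0.466 TPM in every library, and replicate 2 is the lowest point for each of the 5 highest genes.

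Il22 (ENSMUSG00000074695.3) lies on the forward strand of chr10:118204942-118210047 in mm10, with 5 merged exon blocks. It had 183 TPM in replicate 2, against 385, 374 and 304 TPM in replicates 1, 3 and 4, from 2329 counts in replicate 2 and 3777 to 4359 in the others. Its mean level was 311 ± 92.6 TPM (SD, n = 4), and 354 ± 43.8 TPM without replicate 2. In the edgeR fit its level was 8.28 ± 0.09 above 1 TPM on the log2 scale (SE, adjusted p = 2.4e-08), and it ranked 520th of 21764 protein-coding genes by mean TPM. The lowest Il22 value, 183 TPM, was above the highest Il24 value, 49.5 TPM.

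The annotation holds a near copy of Il22, named Iltifb (ENSMUSG00000090461.2), 79.6 kb away on the reverse strand at chr10:118289629-118295038. Iltifb was counted at 2.29 TPM in replicate 2, against 3.00, 1.58 and 1.01 TPM in replicates 1, 3 and 4, a mean of 1.97 ± 0.86 TPM (SD, n = 4). Il22 exceeded it 80.2-fold in replicate 2 and 128-fold, 237-fold and 300.0-fold in replicates 1, 3 and 4. Of the 50-base stretches of Il22's annotated transcripts 41.0% also occurred in Iltifb, and of the 100-base stretches 20.4% did. Fragments lying wholly in such stretches cannot be assigned to 1 of the 2 genes, so the levels of both are uncertain to that extent.

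The 250 bases before the RefSeq starts of Il22 and its copy are shown because these neighbouring genes share transcript sequence and differ so far in level. Both come from RefSeq on GRCm38.p6, the assembly of mm10, and are written 5′ to 3′ on the strand of the gene: Il22 from chr10:118204714-118204963 on the forward strand and Iltifb from chr10:118295039-118295288 on the reverse strand. The RefSeq start of Il22 lies just inside the gene span given above, so the last bases of its window overlap that span, and distances are counted from the RefSeq start. Capitals mark aligned stretches of at least 10 bases that are identical in both.
Il22: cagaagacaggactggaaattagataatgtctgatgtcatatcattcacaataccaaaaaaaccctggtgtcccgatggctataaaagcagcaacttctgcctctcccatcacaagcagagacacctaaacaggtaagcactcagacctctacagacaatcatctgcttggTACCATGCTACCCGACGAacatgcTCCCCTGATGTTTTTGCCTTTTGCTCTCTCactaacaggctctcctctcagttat
Iltifb: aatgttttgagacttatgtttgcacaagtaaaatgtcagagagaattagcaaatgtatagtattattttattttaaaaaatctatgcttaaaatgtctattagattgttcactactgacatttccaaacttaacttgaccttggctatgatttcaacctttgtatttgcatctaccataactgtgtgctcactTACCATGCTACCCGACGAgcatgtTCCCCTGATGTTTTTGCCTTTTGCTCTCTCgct
A global alignment with free end gaps paired 215 bases. Of these paired bases 138 (64.2%) were identical, with unpaired bases left out, and the longest identical run was 30 bases. No other pair of windows was aligned, so this share has no baseline. The 2 capital stretches, 48 bases in all, lie near the gene end of both windows. The letters TATAAA occurred in the Il22 window, 170 to 165 bases before that start, and not in that of Iltifb; 12.3% of 32536 promoter windows of this length hold them on either strand. The letters AGGTCA, the core bound by ROR nuclear receptors, were found in the Iltifb window on the opposite strand, 115 to 110 bases before its start, and not in that of Il22 (14.0% of windows). Both windows held GGAAA, the core of NFAT sites, as 55.7% of windows do. The AP-1 letters TGANTCA (6.73% of windows), the STAT letters TTCNNNGAA (7.04%) and the core bound by the aryl hydrocarbon receptor, GCGTG (28.3%), occurred in neither; all were searched on both strands, and none of the matches reported here overlap within these 2 windows. The window of the near-silent Il20ra held TGAGTCA and GCGTG, that of Il22ra1 held TGAATCA, that of Il19 held TTCCCAGAA, which overlaps a GGAAA match on the opposite strand, and that of Il20 held TGACCT, which is AGGTCA on the opposite strand. The RefSeq table matched these 5 of the 10 genes; Il10, Il24, Il10ra, Il10rb and Il22ra2 were not matched.

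Il24 (ENSMUSG00000026420.16), on the reverse strand of chr1:130882074-130887454 with 6 exon blocks, encodes a cytokine of the IL-20 subfamily. It had 18.7 TPM in replicate 2, against 49.5, 43.3 and 41.4 TPM in replicates 1, 3 and 4. Replicates 1, 3 and 4 lay close together, and replicate 2 was below them all. The mean was 38.2 ± 13.5 TPM (SD, n = 4), 44.7 ± 4.25 TPM without replicate 2, and the fitted level was 5.26 ± 0.14 above 1 TPM on the log2 scale (SE, edgeR adjusted p = 2.6e-07). Il22 exceeded Il24 9.82-fold in replicate 2, and 7.77-fold, 8.64-fold and 7.33-fold in replicates 1, 3 and 4.

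Il10 (ENSMUSG00000016529.5), on the forward strand of chr1:131019845-131024974, encodes the anti-inflammatory cytokine that names the family. Its counts were 7 in replicate 2, against 39, 33 and 23 in replicates 1, 3 and 4. These corresponded to 0.467 TPM in replicate 2, against 3.01, 2.40 and 1.57 TPM in replicates 1, 3 and 4, so that only replicate 2 was under 1 TPM. The mean was 1.86 ± 1.10 TPM (SD, n = 4), and the level of 0.89 ± 0.37 above 1 TPM on the log2 scale was not called (SE, edgeR adjusted p = 0.0554). Without replicate 2 it was 2.32 ± 0.72 TPM (SD, n = 3) and was called above 1 TPM at 1.21 ± 0.23 (SE, edgeR adjusted p = 4.9e-05). Il22 exceeded Il10 393-fold in replicate 2, and 128-fold, 156-fold and 194-fold in replicates 1, 3 and 4.

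Il19 and Il20, IL-20 subfamily cytokines in the same cluster as Il24 and Il10 on chromosome 1, were barely detected. Il19 (ENSMUSG00000016524.12, reverse strand, chr1:130932656-130940115) was counted 2 times in replicate 2, against 0, 2 and 6 times in replicates 1, 3 and 4, at most 0.466 TPM, and was below 1 TPM at −2.33 ± 0.75 on the log2 scale (SE, edgeR adjusted p = 0.0220). Il20 (reverse strand, chr1:130906985-130911451) had 0 counts in all 4 libraries. A floor of 3 counts over the 4 libraries corresponds to 0.0587 TPM for Il20, and covers counting error only.

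Of the receptors, Il10rb and Il10ra were expressed with little spread. Il10rb (ENSMUSG00000022969.13, forward strand, chr16:91406164-91425834) encodes the chain that IL-10, IL-22 and the lambda interferons share. It had 14.8 TPM in replicate 2, against 18.5, 16.9 and 16.5 TPM in replicates 1, 3 and 4, a mean of 16.7 ± 1.51 TPM (SD, n = 4) and a fitted level of 4.06 ± 0.04 above 1 TPM on the log2 scale (SE, edgeR adjusted p = 1.8e-11). Of its 3808 exon bases, 569 (14.9%) overlap Gm21970 on the same strand, a gene model with 0 counts in every library, and fragments there are ambiguous between the 2 genes. Over the remaining bases alone the mean of Il10rb would be 19.6 ± 1.78 TPM (SD, n = 4), a value computed after the overlap was seen. Il10ra (ENSMUSG00000032089.16, reverse strand, chr9:45253837-45269149), the chain specific to IL-10, had 3.62 TPM in replicate 2, against 4.21, 4.46 and 4.44 TPM in replicates 1, 3 and 4. Its mean was 4.18 ± 0.39 TPM (SD, n = 4), 2.06 ± 0.08 above 1 TPM on the log2 scale (SE, edgeR adjusted p = 1.0e-07). The ratio of Il10rb to Il10ra was 4.09 in replicate 2 and 4.39, 3.79 and 3.72 in replicates 1, 3 and 4, so the shared chain was the more abundant in every library.

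Il20ra and Il22ra1, which encode the chains that pair with IL-20RB or IL-10RB in the receptors for IL-22, IL-20 and IL-24, were not detected above a few fragments. Il20ra (chr10:19712570-19760053) was counted 1 time in replicate 2, against 0, 2 and 0 times in replicates 1, 3 and 4. Il22ra1 (chr4:135728172-135752140) was counted 1 time in replicate 2, against 0, 1 and 0 times in replicates 1, 3 and 4. Il22ra2 (chr10:19621998-19634681) had 0 counts throughout, with a floor of 0.0279 TPM over the 4 libraries. Il20rb, the partner chain of Il20ra and Il22ra1, was expressed at 2.78 TPM in replicate 2, against 2.30, 2.51 and 2.80 TPM in replicates 1, 3 and 4, and was above 1 TPM at 1.38 ± 0.09 on the log2 scale (SE, edgeR adjusted p = 3.7e-06). Ifnlr1, the lambda interferon chain that pairs with IL-10RB, was below 1 TPM at 0.237 ± 0.063 TPM (SD, n = 4; edgeR adjusted p = 0.00068), and the lambda interferon genes Ifnl2 and Ifnl3 had 0 counts. The order of mean levels was Il22, Il24, Il10rb, Il10ra, Il10 and Il19, and the ranges of neighbours in this order did not overlap. The gaps were small between Il24 (18.65 TPM at its lowest, in replicate 2) and Il10rb (18.48 TPM at its highest) and between Il10 (0.4667 TPM at its lowest) and Il19 (0.4664 TPM at its highest). Below Il10, the ranges of Il19, Il20ra, Il22ra1, Il20 and Il22ra2 overlapped.

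Replicate 2 had less Il24 and Il10 than the other libraries. These were the 2 members called lower of 6 tested, and 0 were called higher, against 10.9% of all genes tested called lower and 11.7% called higher. Il24 differed by −1.20 ± 0.13 on the log2 scale (SE, edgeR adjusted p = 8.1e-07), and Il10 by −2.23 ± 0.64 (SE, edgeR adjusted p = 0.0146), a value resting on the 7 counts of replicate 2. The values of replicate 2 were below those of all 3 other libraries for both genes. In these bulk samples, fewer cells that make a transcript and less transcript per cell cannot be told apart.

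Il22 in replicate 2 was also below all 3 other libraries, at −0.89 ± 0.22 on the log2 scale, and did not pass the test (SE, edgeR adjusted p = 0.142). That outcome depended on the fit: DESeq2 gave an adjusted p of 0.000325, and edgeR without robust estimation of the prior gave 4.2e-05 at the same change. Without replicate 1 or without replicate 4 the edgeR test called it, at −0.82 and −0.99, and without replicate 3 it did not, at −0.85 (edgeR adjusted p = 0.264). The 2 receptor chains showed smaller differences with no call, −0.16 ± 0.11 for Il10rb (SE, edgeR adjusted p = 0.327) and −0.21 ± 0.19 for Il10ra (SE, edgeR adjusted p = 0.501). Of the 6 tested members, 0 were called in replicates 1, 3 and 4 by edgeR, as were 0% of all genes, and 0 had an unadjusted p under 0.05 or were called by DESeq2. Replicate 2 was among the libraries compared in these tests and widened the spread, so 0 calls do not show that replicates 1, 3 and 4 were alike. For Il22 in replicate 1 the standard error was 0.38, and 0.072 without replicate 2. Without replicate 2, Il22 was lower in replicate 4 than in replicates 1 and 3, by −0.33 on the log2 scale.

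**Figure D2:**
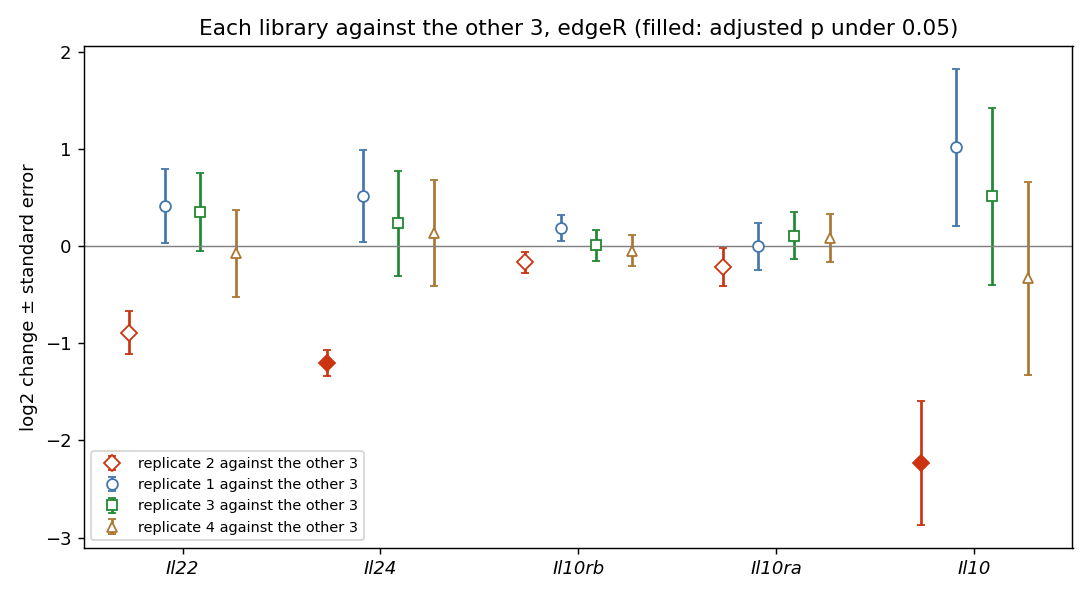
Log2 change of each library against the other 3 (vertical axis, with standard errors; edgeR) for the 5 members with counts in every library; filled symbols mark an adjusted p under 0.05. The filled symbols are replicate 2 for Il24 at −1.20 and for Il10 at −2.23, while the points of Il10rb and Il10ra lie close to 0.

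Set beside Il17a, Il22 and Il24 took a larger ratio in replicate 2, as did Il22 beside Il17f. That library had 505 TPM of Il17a, against 2543, 2181 and 2155 TPM in replicates 1, 3 and 4, a change of −2.12 ± 0.14 (SE, edgeR adjusted p = 0.00169). Il17f had 578 TPM in replicate 2, against 2908, 2756 and 2619 TPM in replicates 1, 3 and 4. The ratio of Il22 to Il17a was 0.363 in replicate 2 and 0.151, 0.171 and 0.141 in replicates 1, 3 and 4. The ratio of Il24 to Il17a was 0.0369 in replicate 2 and 0.0195, 0.0198 and 0.0192 in replicates 1, 3 and 4. The ratio of Il22 to Il17f was 0.317 in replicate 2 and 0.132, 0.136 and 0.116 in replicates 1, 3 and 4. These ratios were not tested. Il10, by contrast, changed by −2.23 ± 0.64 in replicate 2 (SE), close to the change of Il17a.

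Markers of other cells moved with replicate 2, and their part in the differences of Il10, Il22 and Il24 was not tested. Of 8 NK cell and innate lymphoid cell markers, 4 were tested. Eomes and Kit were higher in replicate 2, at 3.10 and 1.35 on the log2 scale. Il7r and Klrk1 were not called, at −0.06 and −2.16, the latter on 1 count in replicate 2. The summed level of the list was 93.7 TPM in replicate 2 and 35.0 to 44.0 TPM in the others. Most of the sum in replicate 2 was Eomes, a transcription factor of NK cells and cytotoxic T cells. Eomes had 61.8 TPM in replicate 2, against 8.65, 6.53 and 7.48 TPM in replicates 1, 3 and 4. Ncr1, Zbtb16 and Klrg1 of that list had 0 counts. Of 6 dendritic cell markers, 4 of them tested, Flt3 was higher. The list summed to 13.6 TPM in replicate 2 and 2.46 to 2.88 TPM in the others, and Clec9a and Siglech had 0 counts. Of 6 gamma-delta T cell markers, 4 of them tested, Sox13 was higher (sum 6.49 TPM in replicate 2 and 2.69 to 4.15 TPM in the others). Of 5 CD8 T cell markers, 3 of them tested, Cd8b1 and Prf1 were lower (sum 35.4 TPM in replicate 2 and 49.2 to 56.3 TPM in the others). Of 8 Th17 markers, 5 were lower and 0 higher, against 10.9% and 11.7% of all genes tested. Of 9 pan-T cell markers, Cd3g and Cd5 were higher and Cd28 was lower, with sums of 4379 TPM in replicate 2 and 4325 to 4483 TPM in the others. Of 7 tested B cell and 4 tested epithelial cell markers, no gene was called in either direction. Of 7 tested myeloid cell markers, Adgre1 was lower, and of 3 tested stromal and endothelial cell markers, Pecam1 was higher. The epithelial markers Cdh1, Krt14 and Krt8, the myeloid marker Lyz2 and the stromal and endothelial markers Col3a1 and Cdh5 had 0 counts.

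The list of other family and class II receptor genes was led by interferon receptor chains. Ifnar1, a chain of the type I interferon receptor, had a mean of 41.2 ± 1.05 TPM, Ifngr2 34.7 ± 2.27 TPM and Ifngr1 26.1 ± 1.96 TPM (SD, n = 4 each), the last pair forming the interferon gamma receptor. Of 8 tested genes in this list, which include the cytokine copy Iltifb, 1 was lower in replicate 2 and 0 were higher, against 10.9% and 11.7% of all genes tested, with a median change of 0.16, against −0.01 over all genes tested. The lower one was F3, tissue factor, a distant relative of these receptors that starts blood clotting: it had 2.76 TPM in replicate 2, against 7.07, 6.44 and 5.83 TPM in replicates 1, 3 and 4, a change of −1.16 ± 0.22 (SE, edgeR adjusted p = 0.000605).

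Transcripts of the signalling machinery downstream of the receptors were present. All 9 JAK, STAT and SOCS genes exceeded 1 TPM, as did 70.6% of all genes tested. The highest were the kinase gene Jak2 at 407 ± 72.4 TPM, Stat5a at 341 ± 16.7 TPM and Stat3 at 256 ± 8.78 TPM (SD, n = 4 each). Jak1 and Tyk2, which encode the kinases named above for these receptors, had 179 ± 5.87 and 44.4 ± 2.09 TPM (SD, n = 4 each). In replicate 2, 3 of these 9 were higher and 1 was lower, against 11.7% and 10.9% of all genes tested, with a median change of −0.02. The inhibitors Socs1 and Socs3 were higher, at 0.55 ± 0.11 and 0.40 ± 0.05, and the kinase gene Tyk2 at 0.19 ± 0.05 (SE; Tyk2 edgeR adjusted p = 0.00678, DESeq2 adjusted p = 0.0509). Jak2 was lower at −0.51 ± 0.04 (SE, edgeR adjusted p = 3.0e-08), with 299 TPM in replicate 2, against 437, 442 and 451 TPM in replicates 1, 3 and 4. Stat3 and Stat5a had changes of −0.02 ± 0.04 and −0.08 ± 0.04 with no call.

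Genes known to respond to IL-10, mostly from work in macrophages, were mixed in replicate 2. Of 9 such genes, all above 1 TPM as were 70.6% of all genes tested, 5 were higher and 1 was lower, against 11.7% and 10.9% of all genes tested, with a median change of 0.26. Those higher included Dusp1, a MAP kinase phosphatase, at 0.44 ± 0.08 (SE, edgeR adjusted p = 0.000288), Socs3, the NF-kappa B cofactor Bcl3 at 0.39 ± 0.07 and the mRNA decay factor Zfp36 at 0.38 ± 0.08. The lower one was the transcription factor Nfil3 at −0.28 ± 0.09 (SE, edgeR adjusted p = 0.0254). Il4ra, a subunit of the IL-4 receptor and the highest of the list at 181 ± 1.70 TPM (SD, n = 4), had a change of 0.08 ± 0.05 with no call.

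Regulators of Il22 and of Il10, from lists that share several genes, were mixed in replicate 2. Of 15 genes listed as regulators of Il10, 13 exceeded 1 TPM and 1 was below it, against 70.6% and 16.4% of all genes tested. All 18 genes listed as inducers or regulators of Il22 exceeded 1 TPM, with the AP-1 factor Batf at 954 ± 35.3 TPM, the IL-21 receptor gene Il21r at 432 ± 18.8 TPM and the hypoxia factor Hif1a at 326 ± 64.7 TPM (SD, n = 4 each). Of these, 5 were lower and 3 were higher in replicate 2, against 10.9% and 11.7% of all genes tested, with a median change of −0.03. Those lower included Tbx21, encoding T-bet, at −1.51 ± 0.12, Maf at −0.70 ± 0.17, the nuclear receptor Rora at −0.63 ± 0.05 and the IL-23 receptor chain Il23r at −0.62 ± 0.12 (SE). Hif1a was higher at 0.59 ± 0.04 (SE, edgeR adjusted p = 1.5e-09). Of 15 regulators of Il10, 5 were lower and 2 higher, against the same shares of all genes, with a median change of −0.08. Besides Tbx21, Maf and Nfil3, Egr2 was lower at −0.68 ± 0.06 (SE, edgeR adjusted p = 9.5e-08), while Ikzf3, encoding Aiolos, was higher at 0.98 ± 0.29 (SE, edgeR adjusted p = 0.0173), which DESeq2 did not call at an adjusted p of 0.104. The abundant regulators Batf, Bhlhe40 and Ikzf1 had changes of −0.03 ± 0.05, 0.14 ± 0.04 and −0.03 ± 0.04 (SE), of which that of Bhlhe40, a repressor of Il10, was called higher (edgeR adjusted p = 0.0157).

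Most of the genes that IL-22 is known to induce in epithelia were not detected. Of 18, 12 had 0 counts, among them the antimicrobial genes Reg3b, Reg3g, S100a8 and S100a9. Over all 50600 genes, non-coding ones included, 23799 had at least 1 count. Among the 21764 protein-coding genes, those at 0 shared rank 15767 by mean TPM. Of 5 targets tested, 2 exceeded 1 TPM, against 70.6% of all genes tested. They were Hamp at a mean of 4.00 ± 2.25 TPM and Muc1 at 1.78 ± 0.77 TPM (SD, n = 4 each; edgeR adjusted p = 0.00164 and 0.0209). Hamp, encoding the iron hormone hepcidin, had 0.852 TPM in replicate 2, against 5.66, 5.57 and 3.92 TPM in replicates 1, 3 and 4, from 4 counts in replicate 2 and 18 to 24 in the others. The mucin gene Muc1 had 0.707 TPM in replicate 2, against 2.54, 1.99 and 1.90 TPM in replicates 1, 3 and 4. Both, of the 5 tested, were called lower by edgeR, against 10.9% of all genes tested, at −2.47 ± 0.77 and −1.53 ± 0.44 (SE; edgeR adjusted p = 0.0254 and 0.0144), and neither by DESeq2 (adjusted p = 0.0846 and 0.0544). Lbp, encoding the lipopolysaccharide binding protein, had 0.946 ± 0.192 TPM (SD, n = 4) and no call.

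**Figure D3:**
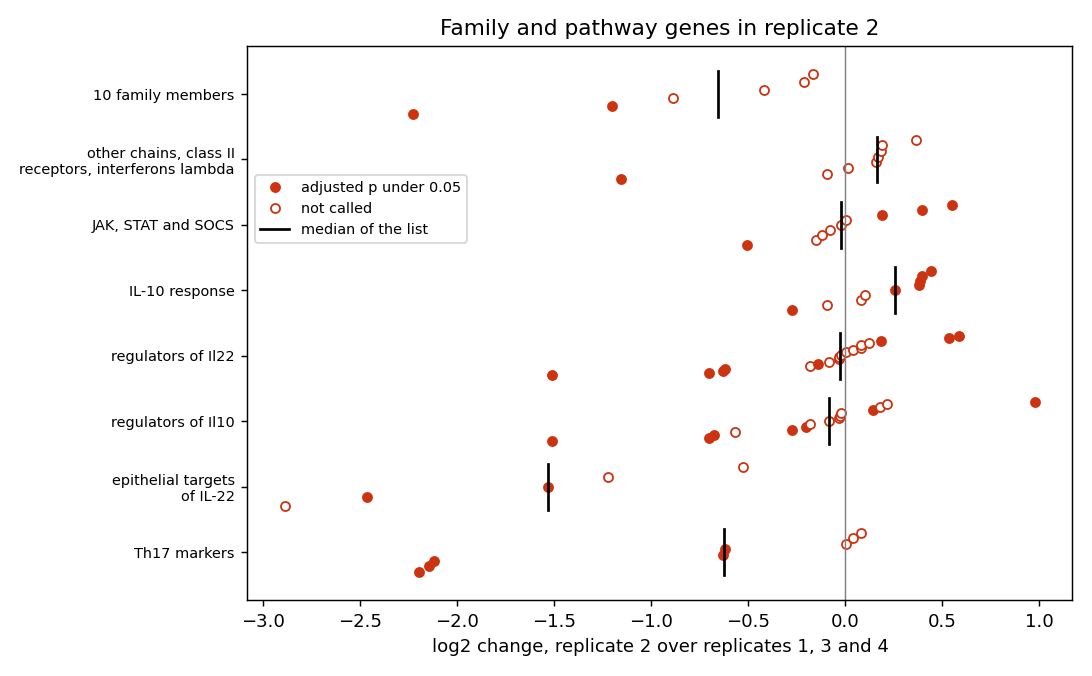
Log2 change of replicate 2 over replicates 1, 3 and 4 (horizontal axis; edgeR) for every tested gene of the family, its signalling and regulator lists and the Th17 markers; filled points passed an adjusted p of 0.05 and bars are list medians. The family members lie left of 0 with 2 filled points, whereas the IL-10 response genes have a median of 0.26.

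On chromosome 1, Il24 and Il10 lie 132 kb apart with Il20 and Il19 between them, so that 2 expressed cytokine genes flank 2 that were near 0. Next to Il10, 28.7 kb away, Mapkapk2, a kinase of the p38 pathway, had 408 TPM in replicate 2, against 276, 274 and 262 TPM in replicates 1, 3 and 4. It was higher at 0.65 ± 0.05 (SE, edgeR adjusted p = 1.8e-09) in the library where Il10 and Il24 were lower. The further neighbours Dyrk3 and Eif2d were also higher, at 0.37 ± 0.09 and 0.19 ± 0.05 (SE, edgeR adjusted p = 0.00665 and 0.00636), and Rassf5 had a change of 0.11 ± 0.05 with no call. On the other side, Fcmr, 1.28 kb from Il24, had a mean of 1.73 ± 0.64 TPM (SD, n = 4), with a change of −0.20 ± 0.49 (SE) in replicate 2 and no call. Pigr had 0.0645 ± 0.0365 TPM (SD, n = 4), a change of −1.67 ± 1.66 (SE) and no call.

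Il10rb lies in a cluster of class II receptor genes, 0.575 kb from Ifnar2 59.4 kb from Ifnar1 and 121 kb from Ifngr2. Ifnar2 had a mean of 21.4 ± 0.75 TPM (SD, n = 4), and these 4 receptor genes lay between 14.8 and 42.7 TPM in every library, with 0 calls in replicate 2. Ifngr1 lies 11.8 kb from Il22ra2, whose counts were 0, and Ifnlr1 lies 19.99 kb from Il22ra1. Near Il10ra, Mpzl2 (200 kb away) and Mpzl3 (176 kb) were lower in replicate 2, at −3.54 ± 0.31 and −0.59 ± 0.10 (SE, edgeR adjusted p = 3.0e-07 and 9.5e-05), while Il10ra itself was not called. The neighbour of Il22 on the side away from Iltifb, Mdm1, had 18.5 TPM in replicate 2, against 18.3, 16.05 and 16.2 TPM in replicates 1, 3 and 4, with no call.

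**Figure D4:**
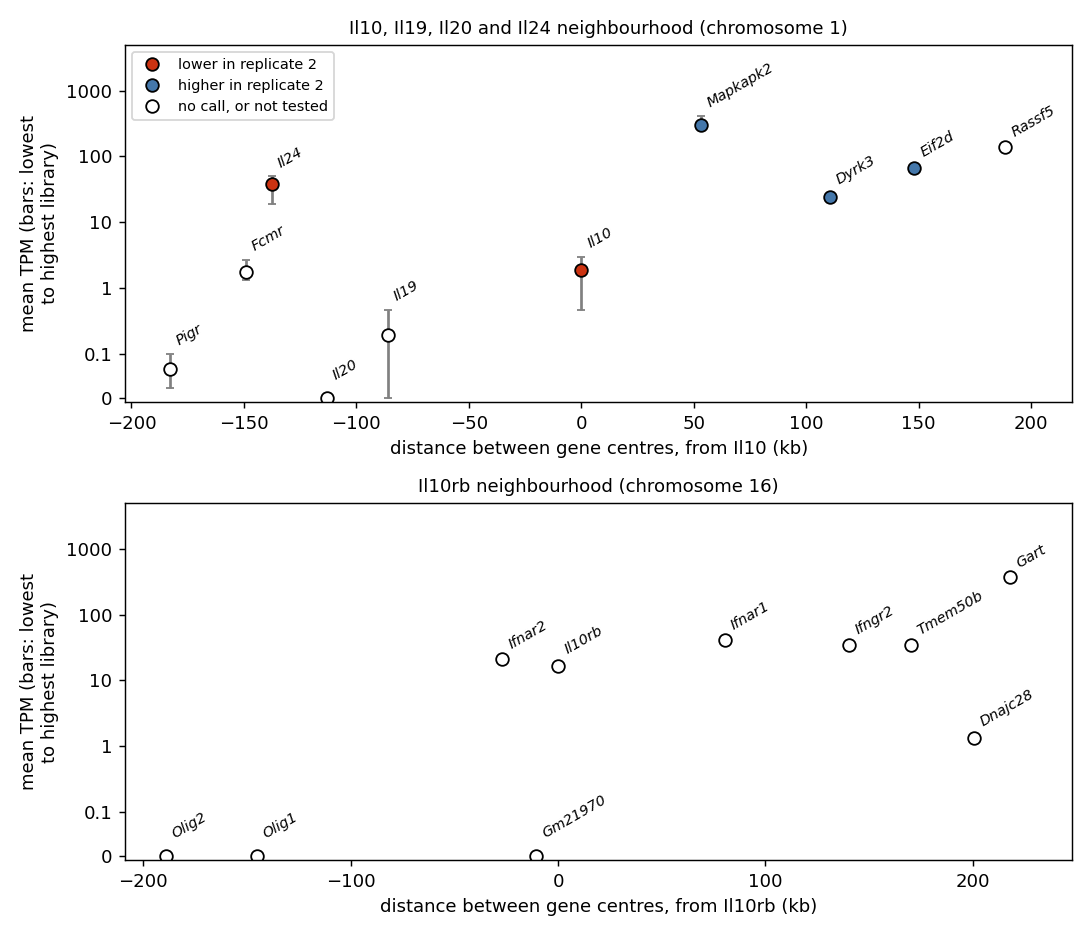
Mean TPM (vertical axis, logarithmic above 0.1; bars span the lowest to the highest library) of genes within 200 kb of Il10 and of Il10rb, by distance between gene centres in kb. In the upper panel Il10 and Il24 are lower in replicate 2 and Mapkapk2, Dyrk3 and Eif2d are higher; in the lower panel no gene was called.

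Over the 4 libraries, the genes most like each member were found among 11195 protein-coding genes by the root mean square difference of centred log2(TPM + 0.1) values. For Il22 these were Smim3, Irf7 and Lonrf3, at differences of 0.033, 0.042 and 0.051. For Il24 they were AA467197, Npr3 and Gfpt2 (0.012, 0.022 and 0.022), and for Il10 Kbtbd13, Srxn1 and the chemokine gene Ccl1 (0.056, 0.12 and 0.15). Il10ra was nearest to Ncapg, Samhd1 and Coa7, and Il10rb to Coq4 and Itgav, all within 0.0058. In each of these patterns the value farthest from the mean of the gene was that of replicate 2. Under a pseudocount of 1, of the 3 genes each, 1 was kept for Il22, 1 for Il24, 2 for Il10 and 0 for Il10ra.

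**Figure D5:**
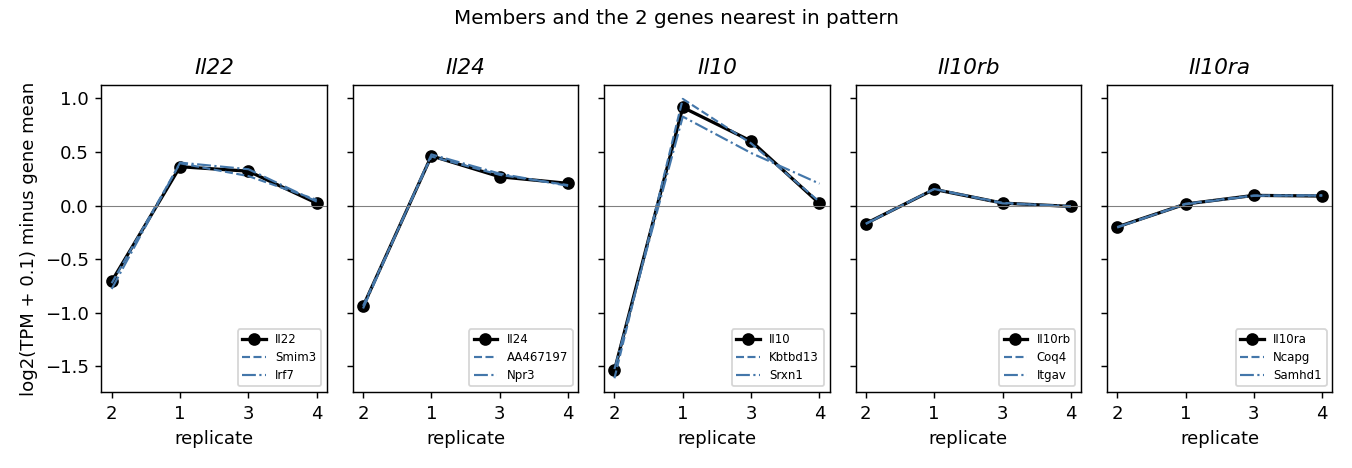
Log2(TPM + 0.1) minus the mean of the gene (vertical axis) in replicates 2, 1, 3 and 4 (horizontal axis) for 5 members, in black, and the 2 genes nearest to each in pattern, in blue. Replicate 2 is the lowest point for every member, at −1.54 for Il10 and −0.17 for Il10rb.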

How the data were processed

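RNA-seq of 4 Th17 libraries was analysed. The deposited values are raw counts: per the file headers, fragments were counted per gene by the authors with featureCounts 1.4.6-p4, on paired reads with both ends mapped and strand option 2, over the exons of GENCODE vM13; the build is mm10 per the labels. The deposited tables also hold each gene's summed exon length. No source used here gives the aligner or its version. Multi-mapped and multi-gene reads are left out by the defaults of the counter, and its recorded command sets no other option.

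Symbols came from GENCODE vM21 (50376 of 50600 identifiers matched). TPM was computed as count over length, scaled to sum to 1000000. Genes with at least 10 summed counts were tested with edgeR 4.0.16 (R 4.3.3): levels by an intercept-only quasi-likelihood fit against 1 TPM, and each replicate against the other 3 with TMM scaling, the lone library being assumed to vary like the others. Robust estimation of the prior was chosen after both forms had been seen, to match earlier processing of these data. P-values were adjusted by Benjamini-Hochberg over all genes tested, at a threshold of 0.05. Each standard error is the size of the log2 change divided by the root of its F statistic. Both edgeR fits were tested on simulated data, and the DESeq2 test was not. Genes changed in the simulated replicate comparisons were well counted, so the simulation does not cover genes with as few counts as Il10 and Il19. Total counts of 33123029 to 37746767 make 3 counts, the floor used, equal to 0.0795 to 0.0906 CPM.

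The members, gene lists and alternatives were chosen with earlier results of these data known. Named genes are the members, Il20rb, Iltifb and Ifnlr1, the 3 highest and up to 5 called genes with the largest change of each list, protein-coding genes within 200 kb of a member, and the 3 genes nearest each member in pattern. Marker genes, Jak1 and Gm21970 were named after their values were seen. Alternatives were DESeq2 1.42.0, other scalings, filters of 1 and 100 counts, a pseudocount of 1 and leaving out each library. Promoter windows are from RefSeq (GRCm38.p6), aligned with Biopython 1.88. Results that need particular genes are not reported here; counts over lists still include these genes.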

Additional observations from a re-analysis of the deposited data

Results flagged for a closer look

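For 5 of 40 family and pathway genes examined, replicate 2 lay far from the other 3 libraries by Dixon's criterion. Chance flags about 5% of genes under it, but that rate cannot be set against these 40. They include genes that were named because they were called in replicate 2, among them Rora, Egr2, Hif1a and Jak2. Of the 8 members examined, those with any count, 0 were so marked. Hif1a had 423 TPM in replicate 2, against 290 to 295 TPM in the others. Il21r had 460.1 TPM in replicate 2, against 420.1 to 425 TPM in the others. Jak2 had 299 TPM in replicate 2, against 437 to 451 TPM in the others. Rora had 19.2 TPM in replicate 2, against 30.1 to 31.6 TPM in the others. Egr2 had 45.7 TPM in replicate 2, against 74.1 to 79.6 TPM in the others.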

How the results depend on the processing

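The calls of Il24 and Il10 as lower in replicate 2 held in 9 of 9 alternatives each, at −1.26 to −1.12 and −2.45 to −2.003 (edgeR or DESeq2 adjusted p at most 3.2e-05 and 0.0495). Il22 in replicate 2 was called in 4 of 9 alternatives, as given above, and the cause was not tested. The Il10 level, not called in the main fit, was called above 1 TPM with no filter beyond 1 count (0.89, edgeR adjusted p = 0.0351), when mitochondrial and small RNA genes were left out of the TPM scale (0.94, edgeR adjusted p = 0.0448) and without replicate 2 (1.21). Genes below 1 TPM numbered 8215 with no filter, as more genes were tested, and 290 with a minimum of 100 counts, as fewer were. DESeq2 called 2, 15 and 3 genes in replicates 1, 3 and 4, and no filter gave 17 in replicate 3. Leaving out a library gave 0 to 68 genes in replicate 1, 0 to 108 in replicate 3 and 0 to 9 in replicate 4, the highest each time without replicate 2 and otherwise at most 2; it gave 0 to 1 members in replicate 4 (Il22). Uncalled changes near 0 turned sign when a library was left out and ranged, on the log2 scale, for Il10ra in replicate 1 from −0.072 to 0.048, for Il24 in replicate 3 from −0.064 to 0.52 and in replicate 4 from −0.18 to 0.39, for Il10rb in replicate 3 from −0.044 to 0.088 (−0.0034 without replicate 4) and in replicate 4 from −0.11 to 0.023, for Il10 in replicate 4 from −0.79 to 0.11, for Il22 in replicate 4 from −0.33 to 0.095 (0.067 without replicate 3), and for the level of Lbp from −0.18 to 0.047. Ifnar1 in replicate 2 turned to −0.010 with scaling by total count only. Among the pathway genes, DESeq2 did not call Muc1, Hamp, Tyk2 or Ikzf3 in replicate 2, and the levels of Muc1 (without replicates 1, 3 or 4) and Iltifb (without replicate 1) were not called above 1 TPM. No paired analysis was possible because the libraries form 1 group. Depth limits Il19, Il20, Il20ra, Il22ra1 and Il22ra2, with 10 or fewer counts in all.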
